A study of Rattus norvegicus with 47 samples.

Results

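The genes described here are 10 transporters, receptors and enzymes of the kidney's proximal tubule, taken by symbol from a kidney mRNA table of 14747 genes. They are the phosphate transporters Slc34a1 and Slc34a3, the sodium-coupled sugar transporters Slc5a1, Slc5a2 and Slc5a10, the endocytic receptors Lrp2 and Cubn, the water channel Aqp1 and the gluconeogenic enzymes Pck1 and Fbp1. All 10 were found, and all 10 exceeded the minimum mean of 5 normalized counts that 13673 genes met.

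The proximal tubule is the first stretch of the nephron after the glomerulus, and its cells take back most of the filtered phosphate, glucose, amino acids, bicarbonate and protein. Carriers in the brush border couple uptake to the sodium gradient, megalin and cubilin draw filtered protein into endosomes, and the same cells make glucose from lactate, glutamine and glycerol. These genes serve proximal tubule cells, though not all in the same segment. A lower level of them in whole tissue can come from fewer such cells in the piece sampled or from less RNA per cell. These cannot be told apart here.

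Kidney mRNA was sequenced from 16 male Wistar Han rats, not genetically modified and aged 7 weeks at the start, of which 8 were fed a high-fat diet (HFD) and 8 a standard diet (SD) for 10 weeks. Each library came from the kidney tissue of 1 rat, so the replicates are animals. Podocyte hypertrophy (PH, enlarged glomerular epithelial cells) was recorded in 9 rats (6 HFD and 3 SD) and absent in 7 (2 HFD and 5 SD), and mesangial matrix increase (MMI, excess matrix between the glomerular capillaries) in 8 (5 HFD and 3 SD) and absent in 8 (3 HFD and 5 SD). The lesions are not among the deposited sample labels but were read by eye from a picture of the study, in which the numbers of SD rats 1246, 1248 and 1249 were the least sharp. The paper's text states that every HFD rat had early lesions and lists MMI and PH among them. The readings used here differ from that if each lesion was meant for each HFD rat. By combination, 6 rats had PH only (3 HFD and 3 SD), 3 had both lesions (all HFD), 5 had MMI only (2 HFD and 3 SD) and 2 had neither (both SD). PH was therefore present in 6 of the 8 HFD rats, and the 2 HFD rats without it, 1255 and 1274, both had MMI.

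The deposited values are normalized counts, which summed to 17623718 to 22565849 per library, and how many reads each value stands for was not recoverable. Mitochondrial genes took 17.9% to 29.6% of a library, with the highest shares in SD rats 1248 and 1247, and the 10 genes together took 0.631% to 1.70%. Their share was 0.936% to 1.70% in the 9 PH rats, against 0.631% to 1.01% in the 7 rats without PH.

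The start regions of 5 members are printed because these genes varied most between rats. In the RefSeq annotation of the GRCr8 assembly, a later one than the Rnor6.0 used for the counts, the 300-base windows run from 250 bases before to 50 bases after the gene's start. They lie at chr17:9238934-9239233 (minus strand) for Slc34a1, chr3:28447948-28448247 (minus strand) for Slc34a3, chr1:192277371-192277670 (plus strand) for Slc5a2, chr10:46898411-46898710 (minus strand) for Slc5a10 and chr3:182348322-182348621 (plus strand) for Pck1. Capitals mark the letters TATAAA (the box near which transcription often starts, searched on the gene's strand) and TTACGTCA (a cAMP response element, searched on both strands).
Slc34a1: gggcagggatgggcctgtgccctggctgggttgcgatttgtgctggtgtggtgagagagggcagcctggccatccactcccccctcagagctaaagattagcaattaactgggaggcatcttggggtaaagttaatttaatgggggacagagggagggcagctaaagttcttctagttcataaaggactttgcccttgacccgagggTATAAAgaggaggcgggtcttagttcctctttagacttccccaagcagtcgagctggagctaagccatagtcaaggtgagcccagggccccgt
Slc34a3: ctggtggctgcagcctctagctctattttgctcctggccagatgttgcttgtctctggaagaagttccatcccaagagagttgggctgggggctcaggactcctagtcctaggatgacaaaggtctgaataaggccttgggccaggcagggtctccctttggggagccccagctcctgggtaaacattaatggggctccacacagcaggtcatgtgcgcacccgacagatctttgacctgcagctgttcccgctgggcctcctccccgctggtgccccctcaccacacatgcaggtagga
Slc5a2: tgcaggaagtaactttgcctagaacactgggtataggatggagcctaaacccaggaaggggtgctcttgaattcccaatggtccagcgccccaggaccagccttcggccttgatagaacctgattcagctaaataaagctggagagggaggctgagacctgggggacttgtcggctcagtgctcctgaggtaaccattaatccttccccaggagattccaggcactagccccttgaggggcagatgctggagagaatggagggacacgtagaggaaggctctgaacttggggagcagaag
Slc5a10: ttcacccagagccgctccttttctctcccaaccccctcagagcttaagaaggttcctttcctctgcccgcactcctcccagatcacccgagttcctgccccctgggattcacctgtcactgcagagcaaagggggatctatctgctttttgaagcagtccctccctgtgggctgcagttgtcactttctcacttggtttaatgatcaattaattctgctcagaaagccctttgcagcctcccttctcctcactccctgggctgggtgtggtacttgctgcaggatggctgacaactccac
Pck1: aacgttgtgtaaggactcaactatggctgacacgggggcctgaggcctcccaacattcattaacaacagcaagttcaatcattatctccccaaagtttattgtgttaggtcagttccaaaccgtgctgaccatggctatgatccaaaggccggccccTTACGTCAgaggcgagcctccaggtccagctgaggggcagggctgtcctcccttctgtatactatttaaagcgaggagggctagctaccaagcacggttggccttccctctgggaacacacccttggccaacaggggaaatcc
TATAAA began 43 bases before the start of Slc34a1, and of the windows not printed that of Aqp1 held it, 30 bases before the start. TTACGTCA began 93 bases before the start of Pck1 and stood in no other member's window. The window of Fbp1, not printed, lies inside the listed gene and does not cover its outermost start. Slc34a3, Slc5a2 and Slc5a10 held neither motif. Among 33469 rat promoter windows of the same length, 8.80% held TATAAA on the gene's strand and 0.807% held TTACGTCA on either strand. These motifs were chosen after the windows had been read, and a match describes the sequence without showing a bound factor.

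The 10 genes differed widely in how much they moved between rats. Slc5a2, the high-capacity glucose carrier SGLT2 of the early proximal tubule, was listed at 9.28 to 2616 normalized counts, a 282-fold range. Slc34a3, the minor phosphate carrier NaPi-IIc, was listed at 8.09 to 1205, a 149-fold range. Their SDs over the 16 rats on the log2 scale were 2.22 and 1.91, larger than those of 99.3% and 98.7% of the 13673 genes.

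Slc34a1 (NaPi-IIa, the main phosphate carrier) spanned 7487 to 65707 normalized counts, Pck1 (the cytosolic enzyme that sets the pace of gluconeogenesis) 18136 to 142753, and Slc5a10 (a carrier of mannose and fructose) 1044 to 6694, or 8.78-fold, 7.87-fold and 6.41-fold. Slc5a1, the SGLT1 carrier of the later proximal tubule, ranged from 340 to 1104, Fbp1, the fructose bisphosphatase of gluconeogenesis, from 8690 to 24264, and Cubn from 3804 to 10091. Lrp2 (megalin) varied 2.06-fold and Aqp1 1.71-fold, and the SD of Aqp1 on the log2 scale, 0.20, was larger than that of 8.38% of genes. The members therefore ran from among the most to among the least variable genes of the kidney.

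**Figure D1:**
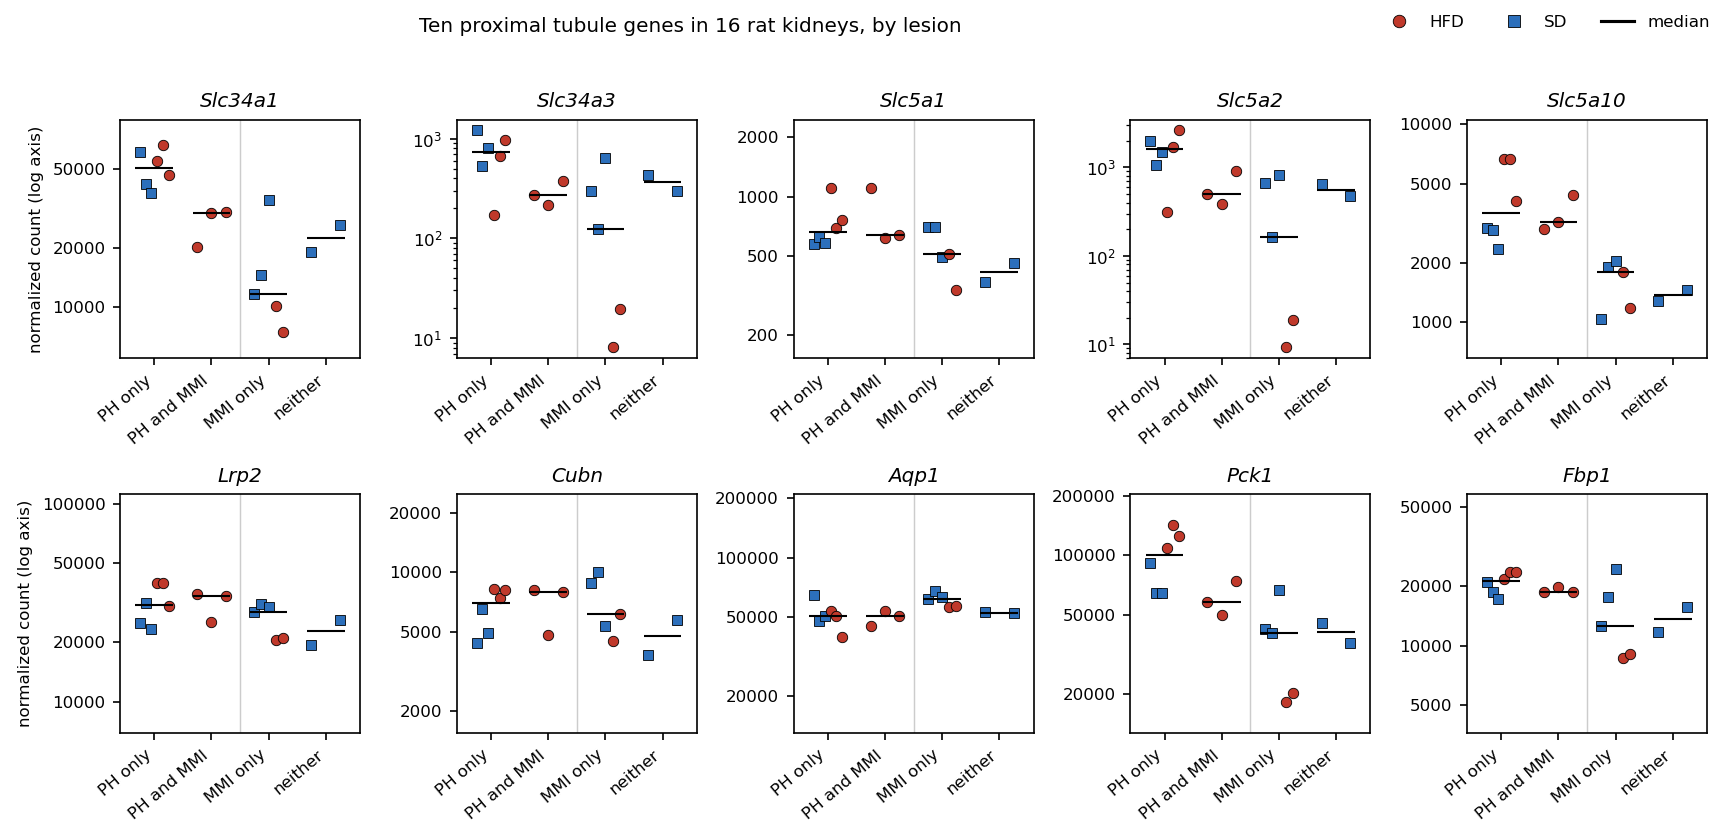
Normalized counts (log axis) of the 10 genes in each of 16 rat kidneys, in columns for PH only, PH and MMI, MMI only and neither lesion, with circles for HFD, squares for SD and a line at each median. The 9 rats with PH lie left of the grey line; Slc5a10 is higher in each of them (2351 to 6694) than in any rat without PH (1044 to 2038), and Slc5a2 and Slc34a3 reach their lowest values in the 2 HFD rats with MMI only.

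Some rats, mainly those at the ends of the range, held similar places for many of the 10 genes, while others did not. Over 45 pairs of members the Pearson r had a median of 0.54, with 7 pairs over 0.8 and 10 below 0. HFD rats 1271, 1259 and 1275, all with PH only, were each among the 4 highest rats for 7 of the 10 genes, and 1271 was the highest for Slc34a1, Slc5a10 and Pck1. At the other end, HFD rats 1274 and 1255 were among the 4 lowest for 8 and 7 genes, and SD rat 1249, with neither lesion, for 5. Aqp1 kept apart from this order, with its highest value in SD rat 1248 (68206) and its lowest in HFD rat 1275 (39931), a rat that was highest for Slc5a2.

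**Figure D2:**
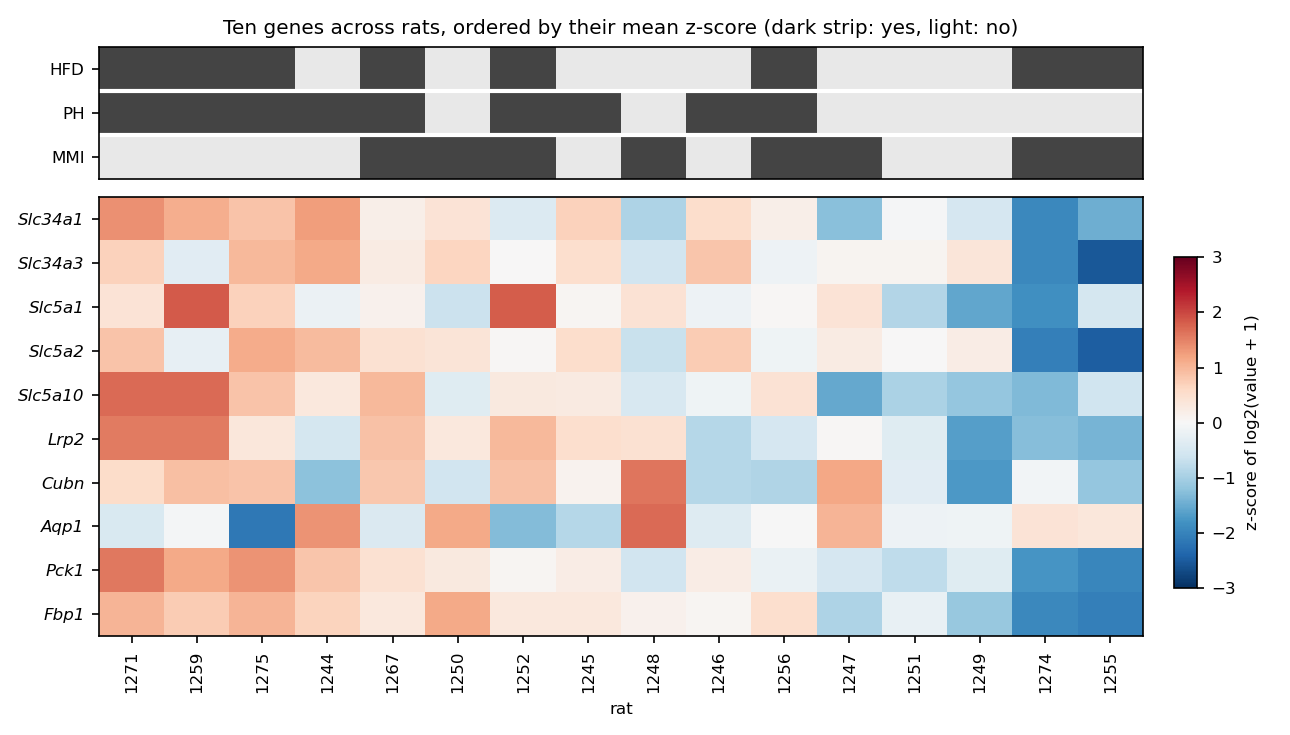
Colour gives each gene's z-score of log2(normalized count + 1) over 16 rats, with rats ordered from left to right by the mean z-score of the 10 genes and strips above showing HFD, PH and MMI (dark for yes). The mean z-score runs from 0.93 in HFD rat 1271 to -1.38 in HFD rat 1255, and Aqp1 does not follow the order of the other genes.

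By diet, none of the 10 genes was called. A call needed an adjusted p under 0.05 (limma with Benjamini-Hochberg adjustment over 13673 genes) and an absolute log2 fold change over 1, and 0.0% of all genes passed, while 593 genes (4.34%) had an unadjusted p under 0.05. With its own DESeq2 test at the same thresholds, the paper called Epha3 and Atp12a higher and Robo3 and Sult4a1 lower with HFD. None of these is a member. Of the 10 members, 5 had log2 fold changes above 0 and 5 below, with a median of 0.07 beside -0.02 for all genes. One member, Slc5a10, had an unadjusted p under 0.05.

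Slc5a10 was listed at 1177, 3662 and 6694 normalized counts in HFD rats (lowest, median, highest), against 1044, 1977 and 3010 in SD rats. In all, 5 of the 8 HFD rats exceeded every SD rat, and the groups overlapped in the rest. The log2 fold change was 0.83 ± 0.34 (SE, adjusted p = 0.918 by limma).

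Slc5a2 was at 9.28, 439 and 2616 in HFD rats, against 163, 751 and 2003 in SD rats, and Slc34a3 at 8.09, 244 and 963 in HFD rats, against 123, 481 and 1205 in SD rats. For both genes 2 HFD rats, 1255 and 1274, lay below every SD rat while the remaining 6 overlapped the SD range. Their log2 fold changes were -1.34 ± 0.99 and -1.47 ± 0.83 (SE, adjusted p = 0.918 for each by limma). Without those 2 rats, a choice made after seeing the data, the log2 fold change by diet was largest for Slc5a10, at 1.24 (adjusted p = 0.404 by limma). It was 0.11 for Slc5a2, -0.28 for Slc34a3, 0.68 for Pck1, 0.34 for Lrp2 and 0.52 for Slc5a1. In that fit none of the 10 was called by limma (4 at an unadjusted p under 0.05). With PH and MMI as covariates Slc5a2 was at -2.38 and Slc34a3 at -2.32, with no member called by limma (2 at an unadjusted p under 0.05).

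Slc34a1 was at 7487, 30020 and 65707 in HFD rats, against 11745, 30379 and 61044 in SD rats, and Pck1 at 18136, 66351 and 142753 in HFD rats, against 36300, 55158 and 91513 in SD rats. For both, HFD rats held the lowest and the highest values. Their log2 fold changes were -0.04 ± 0.45 and 0.13 ± 0.40 (SE), and that of Fbp1 was -0.0037 ± 0.23.

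Lrp2, Cubn, Slc5a1 and Aqp1 had log2 fold changes by diet of 0.17 ± 0.16, 0.19 ± 0.20, 0.29 ± 0.21 and -0.18 ± 0.11 (SE), with adjusted p = 0.918 for each by limma. In normalized counts, not on the log2 scale, the spread of the HFD rats was the wider for 7 of the 10 members, as the SD of Slc5a10 (2037 in HFD rats, 733 in SD rats) and of Pck1 (46876 in HFD rats, 18718 in SD rats) shows. Slc34a3 is not among the 7 (329 in HFD rats, 343 in SD rats). Its values nevertheless ran from 8.09 to 963 in HFD rats, against 123 to 1205 in SD rats.

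By PH, 3 of the 10 genes rose: Slc34a1, Slc5a10 and Pck1. Among all 13673 genes 0.746% were called higher at an adjusted p under 0.05 (limma, Benjamini-Hochberg). In all, 8 members were higher at an unadjusted p under 0.05, beside 17.1% of all genes. The log2 fold change was above 0 for 9 of 10 members, with a median of 0.90 beside -0.01 for all genes. In its kidney mRNA by lesion, the paper named Gsta3 lower and Xkr4 higher with PH, and Cog4 and Phyhipl higher with MMI. No member is among them. For a later listing of lesion-associated genes the paper also required an absolute log2 fold change over 1, which was not required here by lesion.

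Slc5a10 gave the clearest separation. It was at 2351, 3227 and 6694 normalized counts in PH rats (lowest, median, highest), against 1044, 1460 and 2038 in rats without PH. All 9 PH rats exceeded all 7 others, a separation that 0.0731% of genes showed in this direction. Slc5a10 averaged 4039 ± 1624 in PH rats and 1530 ± 387 in rats without PH (SD, n = 9 and 7), a log2 fold change of 1.35 ± 0.22 (SE, adjusted p = 0.0317 by limma).

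Slc34a1 was at 20249, 41858 and 65707 in PH rats, against 7487, 14606 and 34845 in rats without PH. Of the 9 PH rats 6 exceeded every rat without PH, and these were the 6 with PH only. The mean was 43113 ± 15288 in PH rats and 17699 ± 9741 in rats without PH (SD), and the log2 fold change was 1.38 ± 0.31 (SE, adjusted p = 0.0474 by limma).

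Pck1 was at 50201, 74216 and 142753 in PH rats, against 18136, 40671 and 66966 in rats without PH. In PH rats 5 of 9 values lay above the whole range of the others. The log2 fold change was 1.21 ± 0.28 (SE, adjusted p = 0.0485 by limma). Fbp1, the other gluconeogenic enzyme, was at 17152, 19806 and 23512 in PH rats, against 8690, 12524 and 24264 in rats without PH, and SD rat 1250, without PH, was the highest of all (log2 fold change 0.59 ± 0.18, adjusted p = 0.0697).

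Slc5a2 and Slc34a3 had the largest estimates by PH and also the largest errors. Slc5a2 was at 317, 1054 and 2616 in PH rats, against 9.28, 471 and 830 in rats without PH, and 6 of 9 PH rats exceeded every rat without it (log2 fold change 2.45 ± 0.86, adjusted p = 0.0858). Slc34a3 was at 172, 530 and 1205 in PH rats, against 8.09, 296 and 637 in rats without PH (log2 fold change 1.89 ± 0.78, adjusted p = 0.116).

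The remaining 4 members had smaller estimates that did not pass the test. Slc5a1 had a log2 fold change of 0.54 ± 0.18 (adjusted p = 0.0822) and Lrp2 of 0.32 ± 0.15 (adjusted p = 0.147). Cubn, which binds megalin and takes up albumin and vitamin B12 complexes, was at 4413, 7445 and 8226 in PH rats, against 3804, 5722 and 10091 in rats without PH (0.12 ± 0.20, adjusted p = 0.700). Aqp1, the water channel of the proximal tubule and thin descending limb, was the only member below 0, at -0.22 ± 0.11 (adjusted p = 0.165).

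**Figure D3:**
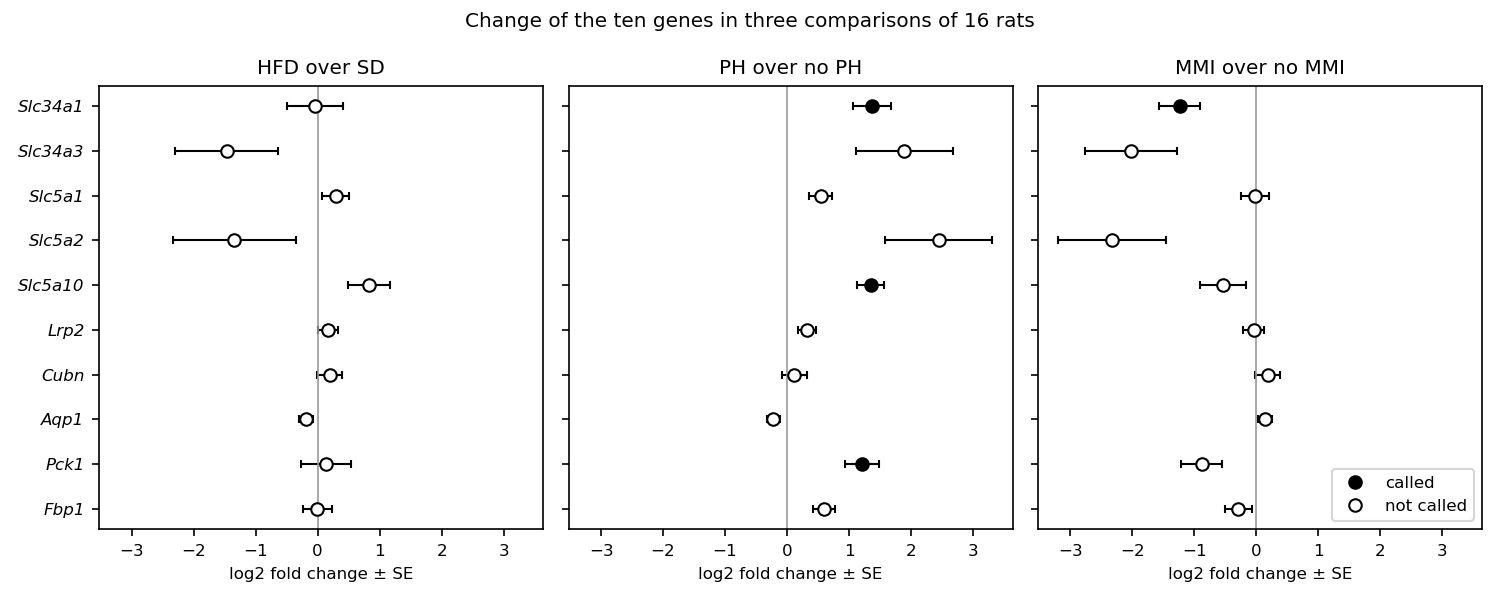
Log2 fold changes ± SE of the 10 genes for HFD over SD (8 and 8 rats), PH over no PH (9 and 7) and MMI over no MMI (8 and 8), with filled points for genes called. Slc34a1, Slc5a10 and Pck1 are called by PH and Slc34a1 alone by MMI, and Slc5a2 and Slc34a3 have the widest error bars in all 3 panels.

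The calls by PH lay close to the threshold, while the sizes moved less. When each rat was left out in turn, the log2 fold change ranged from 1.24 to 1.43 for Slc5a10, from 1.20 to 1.57 for Slc34a1 and from 1.05 to 1.36 for Pck1, but the number of members called ranged from 0 to 5. It was 0 without SD rat 1244, 1245, 1247 or 1249 or HFD rat 1271, 1274 or 1275 (limma, with 6 to 9 members at an unadjusted p under 0.05), and 5 without SD rat 1250 or HFD rat 1252, where 8.44% and 16.8% of all genes were called higher. The call was lost in 7 of the 16 fits for Slc5a10, in 12 for Slc34a1 and in 13 for Pck1, and that of Pck1 also with all genes above 0 kept (adjusted p = 0.0510) and with equal library totals (adjusted p = 0.0505). With diet as a covariate 6 members were called, Slc34a3, Slc5a2 and Fbp1 in addition, beside 15.8% of all genes called higher in that fit. With MMI as a covariate none was (limma, 7 at an unadjusted p under 0.05), at log2 fold changes of 1.33 for Slc5a10, 1.06 for Slc34a1 and 1.02 for Pck1, and none was with diet and MMI together (7 at an unadjusted p under 0.05).

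Without SD rats 1246, 1248 and 1249, whose lesions were the hardest to read, no member was called by limma (8 at an unadjusted p under 0.05), and the log2 fold changes were 1.46 for Slc5a10 (adjusted p = 0.112), 1.43 for Slc34a1 (adjusted p = 0.161) and 1.36 for Pck1 (adjusted p = 0.161).

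Within the diets the PH estimates differed in size. The log2 fold change of Slc5a2 was 5.80 among HFD rats (6 with PH, 2 without) and 1.58 among SD rats (3 with PH, 5 without), and that of Slc34a3 was 4.75 among HFD rats and 1.35 among SD rats. Slc34a1 was at 2.13 and Slc5a10 at 1.61 among HFD rats, against 1.22 and 0.87 among SD rats. In HFD rats alone 4 members were called, Slc5a2 and Slc34a3 (adjusted p = 0.0209 for each by limma), Fbp1 (0.0160) and Pck1 (0.0424), beside 0.704% of all genes called higher, while Slc34a1 (0.0516) and Slc5a10 (0.0626) were not. In SD rats alone no member was called by limma, with 5 at an unadjusted p under 0.05, beside 2.20% of all genes called higher. The interaction of diet and PH was 4.22 ± 0.97 for Slc5a2 (SE, adjusted p = 0.155 by limma) and 3.40 ± 0.85 for Slc34a3 (adjusted p = 0.216), so neither difference passed the test.

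The 2 HFD rats without PH held the lowest values of both genes. Slc5a2 was at 9.28 in 1255 and 18.8 in 1274, against 163 to 2616 in the other 14 rats, and Slc34a3 was at 8.09 and 19.6, against 123 to 1205. Slc34a1, Pck1 and Fbp1 were also lower in both rats than in each of the other 14, as were 484 genes in all (3.54%). Slc5a1, Slc5a10, Lrp2, Cubn and Aqp1 overlapped the range of the others in 1 or both. Without both rats, a choice made after the data were seen, no member was called by PH or MMI by limma (5 and 3 at an unadjusted p under 0.05), and the PH log2 fold changes were 1.33 for Slc5a10, 1.04 for Slc34a1 and 0.85 for Pck1. Those of Slc5a2 and Slc34a3 without both rats were 0.99 and 0.60 by PH, against 2.45 and 1.89 in all rats, and -1.05 and -0.94 by MMI, against -2.33 and -2.03 in all rats.

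Rat 1255 also stood apart in markers of other tissue, whose part in its values was not tested. The summed level of 3 urothelium markers was 5339 in 1255 and 12.1 in 1274, against 11.2 to 848 in the other 14 rats, and that of 5 adipocyte markers was 13908 in 1255 and 1446 in 1274, against 886 to 8768 in the others. Inner medulla markers summed to 16781 in 1255, the highest of all, and 11585 in 1274, against 6397 to 14630 in the others, and principal cell markers to 30503 in 1255 and 15778 in 1274, against 12453 to 45362. Podocyte markers were lowest in 1255 (1865), with 4632 in 1274, against 4045 to 6962 in the others. Rat 1274 lay within the range of the other 14 for these 5 sums but was the highest of all for endothelial markers, which summed to 3678 in 1255 and 7938 in 1274, against 3096 to 7670 in the others, and for tubular injury genes, which summed to 16120 in 1255 and 31200 in 1274, against 7159 to 21284 in the others. The late straight segment markers of the proximal tubule summed to 105802 in 1255 and 112170 in 1274, within the 68748 to 119432 of the others. Distal convoluted tubule markers summed to 4313 in 1255, the lowest of all, and 9013 in 1274, against 7899 to 23663 in the others. Intercalated cell markers were also lowest in 1255 (9154), with 12887 in 1274, against 9272 to 15139 in the others.

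Slc5a2 and Slc34a3 ordered the rats in nearly the same way. Their ranks differed by at most 2 places in any of the 16 rats and by at most 1 place in 11. HFD rat 1259 shows how they parted from the other members: it was the highest rat for Slc5a1 (1104) and Lrp2 (39936) and had 54562 counts of Slc34a1, yet it held the lowest Slc5a2 (317) and Slc34a3 (172) of the 9 PH rats. SD rat 1248, with the next lowest values of all (163 and 123), was the highest for Cubn and Aqp1.

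**Figure D4:**
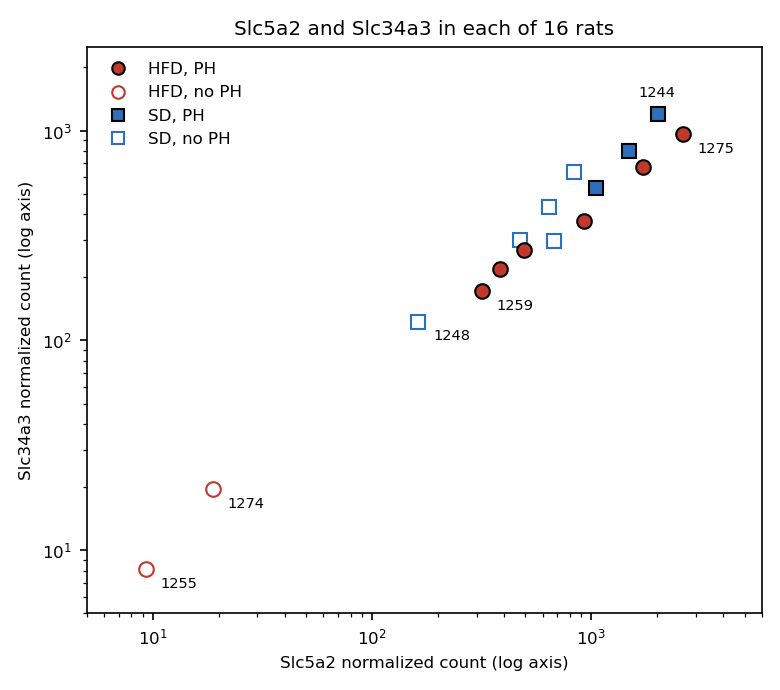
Each point is 1 rat, with its Slc5a2 normalized count on the horizontal and its Slc34a3 normalized count on the vertical axis (both log axes), circles for HFD, squares for SD, filled for PH and open for no PH. HFD rats 1255 (9.28 and 8.09) and 1274 (18.8 and 19.6) stand far below the other 14 rats, which run from SD rat 1248 (163 and 123) upward.

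By MMI, 1 of the 10 genes fell, Slc34a1. Across all genes 17.7% were called lower and 8.37% higher (limma, adjusted p under 0.05), so the share of members called lower was no greater than that of the genes at large. Of the 10 members 8 had log2 fold changes below 0, with a median of -0.42 beside 0.03 for all genes. At an unadjusted p under 0.05, 4 members were lower, beside 23.7% of genes.

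Slc34a1 was at 7487, 17428 and 34845 normalized counts in MMI rats (lowest, median, highest), against 19120, 44253 and 65707 in rats without MMI. The groups overlapped, with 4 of the 8 MMI rats below every rat without MMI. The mean was 19894 ± 10498 in MMI rats and 44095 ± 16336 in rats without MMI (SD, n = 8 each), a log2 fold change of -1.24 ± 0.33 (SE, adjusted p = 0.0151 by limma). The call held when any 1 rat was left out, and was lost with PH as a covariate (-0.84, adjusted p = 0.0577), with diet and PH as covariates (-0.69, adjusted p = 0.258), within HFD rats (-1.70, adjusted p = 0.101), within SD rats (-0.92, adjusted p = 0.238) and without rats 1255 and 1274 (-0.91, adjusted p = 0.0638). Leaving out 1 rat gave 1 to 4 members called lower, the most without SD rat 1250 or 1251 or HFD rat 1267, where Slc34a3, Slc5a2 and Pck1 passed as well, beside 21.8%, 19.4% and 17.7% of all genes called lower.

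Slc5a2 was at 9.28, 439 and 921 in MMI rats, against 317, 1266 and 2616 in rats without MMI, and Slc34a3 at 8.09, 244 and 637, against 172, 598 and 1205. In each case 3 MMI rats, 1248, 1255 and 1274, lay below every rat without MMI. The log2 fold changes were -2.33 ± 0.87 (SE, adjusted p = 0.0549) and -2.03 ± 0.74 (adjusted p = 0.0523). Pck1 was at 18136, 46291 and 74216 in MMI rats, against 36300, 78245 and 142753 in rats without MMI (-0.88 ± 0.34, adjusted p = 0.0591).

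Slc5a10, which separated the rats by PH, overlapped by MMI. It was at 1044, 1977 and 4383 in MMI rats, against 1284, 2977 and 6694 in rats without MMI (log2 fold change -0.54 ± 0.36, adjusted p = 0.266). Fbp1 had a log2 fold change of -0.29 ± 0.21, Lrp2 of -0.04 ± 0.16, Slc5a1 of -0.02 ± 0.22, Aqp1 of 0.14 ± 0.12 and Cubn of 0.18 ± 0.20, none past the test. No interaction of diet and MMI passed the test for a member.

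By combination of lesions, medians are given with no test because both lesions together occurred only with HFD and neither only with SD. Slc34a1 was highest with PH only (50604), then with both (29905), with neither (22516) and with MMI only (11745). Pck1 was at 100450 with PH only, 58487 with both, 40936 with neither and 40671 with MMI only. Slc5a10 was at 3554 with PH only and 3227 with both, against 1372 with neither and 1789 with MMI only, while Aqp1 stayed between 50682 and 61933 in all 4.

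Companion genes of each function were counted in the same fits, in which 0.746% of all genes were called higher by PH, and 17.7% lower and 8.37% higher by MMI. The counts by MMI are small and stand beside that share, so nothing particular to a function is read from them. Of 12 phosphate-handling genes, 11 had log2 fold changes above 0 by PH (median 0.33) and 1 rose, Cyp27b1, which makes active vitamin D. It was at 7.73, 21.1 and 155 normalized counts in PH rats, against 1.00, 5.56 and 9.91 in rats without PH (2.28 ± 0.53, adjusted p = 0.0485). By MMI 2 of the 12 fell, Pth1r, the parathyroid hormone receptor (-1.33 ± 0.35, adjusted p = 0.0133), and Slc9a3r1, the scaffold NHERF1 that holds NaPi-IIa at the brush border (-0.70 ± 0.23, adjusted p = 0.0375).

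Of 8 sugar transport and fructose genes 1 rose by PH, the fructose carrier Slc2a5, at 1891, 2681 and 3680 in PH rats, against 1126, 1650 and 2100 in rats without PH (log2 fold change 0.71 ± 0.15, adjusted p = 0.0403). By MMI 1 fell, the fructokinase Khk (-1.29 ± 0.34, adjusted p = 0.0134). Among 14 gluconeogenesis and ammoniagenesis genes 2 rose by PH and none was called by MMI. They were Pc, the pyruvate carboxylase that feeds Pck1 with oxaloacetate (0.94 ± 0.18, adjusted p = 0.0403), and Slc37a4, the carrier that brings glucose 6-phosphate into the endoplasmic reticulum (0.64 ± 0.13, adjusted p = 0.0403).

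Of 10 endocytosis genes none was called by PH, and by MMI 3 fell and 1 rose. Amn, the amnionless protein that carries cubilin to the membrane, was at 343, 782 and 2199 in MMI rats, against 1318, 4987 and 5543 in rats without MMI (-2.03 ± 0.45, adjusted p = 0.00818), although Cubn itself did not pass. Gipc1, an adaptor of megalin (-0.95 ± 0.23, adjusted p = 0.0106), and Fcgrt, the receptor that recycles albumin and IgG (-0.76 ± 0.19, adjusted p = 0.0115), fell too. Ocrl, the endosomal phosphatase of Lowe syndrome, rose (0.64 ± 0.19, adjusted p = 0.0237).

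Of 9 genes for sodium, bicarbonate and water none was called by PH, and by MMI Car2, the cytosolic carbonic anhydrase, rose (0.42 ± 0.13, adjusted p = 0.0293) and the water channel Aqp11 fell (-0.59 ± 0.21, adjusted p = 0.0438). None of 13 amino acid and peptide carriers was called by either lesion. The first in the list, the neutral amino acid carrier Slc6a19, had log2 fold changes of 0.98 ± 0.49 by PH (adjusted p = 0.176) and -0.67 ± 0.51 by MMI (adjusted p = 0.327), and Slc6a18 had 0.07 ± 0.12 by each.

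Of 15 regulators none was called by PH and 3 fell by MMI, beside the 17.7% of all genes, namely the nuclear receptor Rxra (-1.47 ± 0.36, adjusted p = 0.0108), the factor Cebpb (-1.70 ± 0.47, adjusted p = 0.0177) and Crtc2, a coactivator of CREB (-0.35 ± 0.12, adjusted p = 0.0415). Leaving out 1 rat lost the MMI calls of Aqp11 in 13 of the 16 fits, Slc9a3r1 in 9, Crtc2 in 8, Car2 in 7 and Ocrl in 5, and the PH calls of Cyp27b1 in 13, Slc2a5 and Slc37a4 in 12 and Pc in 11, while those of Pth1r, Khk, Amn, Gipc1, Fcgrt, Rxra and Cebpb by MMI held. SD rats 1244, 1246 and 1247 and HFD rat 1274 were among those whose absence lost each of these calls. Without rats 1255 and 1274 the calls of Slc9a3r1, Pth1r, Khk, Fcgrt, Ocrl, Car2, Aqp11 and Crtc2 by MMI and those of all 4 companions by PH were lost.

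Markers of other kidney cells were counted in the same fits, and their part in the members' values was not tested. Among all genes 0.746% were called higher by PH, and 17.7% lower and 8.37% higher by MMI. The marker counts by MMI are small and stand beside that share, so nothing particular to a cell type is read from them. Of 8 podocyte markers 2 rose by PH, Synpo (1.76 ± 0.33, adjusted p = 0.0403) and Nphs1 (1.35 ± 0.29, adjusted p = 0.0432), and their summed level was 4840 to 6962 in PH rats, against 1865 to 4738 in rats without PH. By MMI 2 fell, Synpo (-1.55 ± 0.38, adjusted p = 0.0100) and Nphs1 (-1.09 ± 0.34, adjusted p = 0.0295), and Plce1 rose (0.87 ± 0.23, adjusted p = 0.0151). Of 7 tubular injury genes 1 fell by PH, Spp1 (-1.21 ± 0.25, adjusted p = 0.0403), beside 72 of all 13673 genes called lower. The summed level of the 7 was 7159 to 13312 in PH rats, against 10084 to 31200 in rats without PH, the highest being in HFD rat 1274. The PH calls of Synpo, Nphs1 and Spp1 were each lost in 11 of the 16 fits that left out 1 rat (without SD rat 1244 to 1249 or HFD rat 1255, 1259, 1271, 1274 or 1275) and without rats 1255 and 1274 together (adjusted p = 0.215, 0.206 and 0.215).

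Of 7 markers of the thick ascending limb 1 fell by MMI, Cldn19, and 3 rose, Cldn16, Kcnj1 and, named after its value was seen, Egf, and the summed level was 107615 to 243284 in MMI rats, against 96362 to 151312 in rats without MMI. By MMI 1 of 7 principal cell markers rose (Scnn1g). Those that fell were 1 of 6 intercalated cell markers (Slc4a9), 1 of 7 endothelial markers (Plvap) and 2 of 8 macrophage markers (C1qa and C1qb). These lists were mixed in direction by MMI. Log2 fold changes were above 0 for 3 principal cell, 3 intercalated cell, 3 endothelial and 3 macrophage markers. The medians were -0.02, -0.0035, -0.0086 and -0.10 in that order. No marker was called by either lesion for the late straight segment of the proximal tubule (4, with Slc7a13 and Slc22a7), the distal convoluted tubule (3, Slc12a3 and Trpm6), the inner medulla (2, Slc14a2 and Cryab), fibroblasts (6, Pdgfrb and Col1a1), adipocytes (5, Adipoq and Plin1) or urothelium (3, Upk1b and Upk3a). By PH, log2 fold changes were above 0 for 3 of 3 distal convoluted tubule markers (median 0.50). They were above 0 for 1 of 7 thick ascending limb markers (median -0.50) and 0 of 2 inner medulla markers (-0.94). Distal convoluted tubule markers summed to 10229 to 23663 in PH rats, against 4313 to 14044 in rats without PH. The median sum of inner medulla markers was 8016, against 11585. Whether these bear on the members was not tested. By MMI the calls of Synpo, Plce1 and Cldn19 held when any 1 rat was left out, those of Nphs1 and Kcnj1 were lost without SD rat 1244, 1245, 1246, 1247 or 1248 or HFD rat 1271 or 1274, and that of Cldn16 without 1244 or 1274. Those of Slc4a9 and Plvap held, and those of Scnn1g, C1qa and C1qb were lost in 6, 4 and 5 of the 16 fits, without SD rat 1244 among others. Without rats 1255 and 1274 together the calls of Nphs1, Plce1, Cldn19, Cldn16, Kcnj1, Scnn1g, Slc4a9 and C1qa were lost. The summed level of the straight segment markers was 75111 to 119432 in PH rats (median 89232), against 68748 to 115175 in rats without PH (median 109092). The sum and the single genes differed in direction, since 3 of the 4 had log2 fold changes above 0 by PH (median 0.29). Lum, Cd163, Cfd and Krt5 were listed at 0 in at least 1 library, and the other markers were above 0 in all.

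Over the 16 rats, the gene outside the 10 whose values most resembled their mean z-score was Slc13a3, the sodium-coupled dicarboxylate carrier of the basolateral membrane (Pearson r = 0.97). It was followed by Pxmp4 (0.95), Pdk2 (0.94), Ablim3 (0.94) and Scpep1 (0.93). The most opposed were Chtop (-0.90), Anxa5 (-0.90), Wdyhv1 (-0.90), Capsl (-0.88) and LOC100911295 (-0.88). Against the mean of the other 9, Pck1 (0.92) and Fbp1 (0.91) were the most typical members, Cubn was at 0.35 and Aqp1 at -0.36. These r values describe 16 rats that share diets and lesions and carry no test.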

How the data were processed

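Kidney mRNA values of 16 rats were analysed, and the small RNA tables were not used here. Per the labels, the authors trimmed reads with Cutadapt, quantified transcripts of Rnor6.0 with Salmon and tested them with DESeq2 (1.24.0). The signal values they deposited are normalized counts per gene, whose low values were not multiples of a common step, so no reads were recovered and no count test was run. The authors' own fold changes and p-values in the table were not used.

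Values were taken as log2(normalized count + 1) for 13673 genes with a mean of at least 5, leaving out 1074, and fitted with limma (3.58.1, trended variance, two-sided, R 4.3.3), with p adjusted by Benjamini-Hochberg over all genes tested. The pipeline was tested on simulated data with independent noise for each gene, which does not imitate differences between rats that many genes share. HFD was compared with SD, PH with no PH and MMI with no MMI, in all 16 rats without covariates. Fold changes are on the log2(value + 1) scale, which understates changes of low genes. Calls needed an adjusted p under 0.05 and, by diet, an absolute log2 fold change over 1.

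Alternatives were pseudocounts of 5 and 0.5, means of at least 50 or above 0, TMM factors (trimmed mean of M values), equal library totals, robust variance, covariates, single diets and leaving out rats. The members and gene lists were chosen with earlier results of these data known. Genes named were all members, in each companion list those called by a lesion (up to 4 of smallest p, 3 for markers) or otherwise the first 2, and the 5 most and 5 least correlated genes. Of the listed genes, 9 were not found under the symbols searched. Some listed genes are not reported here and are left out of the counts of their lists.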

Additional observations from a re-analysis of the deposited data

How the results depend on the processing

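No paired analysis was possible because the HFD and SD kidney mRNA libraries share no rat number. Lesions were not randomized and went with diet in part, lesion readings came from a picture, reads per value were not recovered, and 16 rats leave wide errors for Slc5a2 and Slc34a3. Of the values of the 10 members under alternatives other than leaving out single rats, 316 of 370 kept their direction and their side of the threshold, 24 lost and 8 gained a call and 22 reversed, and for companion and marker genes 303 of 475 held, 166 lost and 1 gained a call and 5 reversed. The causes were not tested.

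Genes called by PH numbered 174, against 90 with all genes above 0 kept, 63 with equal library totals, 3806 with diet as a covariate and 315 in SD rats alone. By limma there were 0 with MMI as a covariate (2164 at an unadjusted p under 0.05), 0 with diet and MMI (2523), 0 without rats 1246, 1248 and 1249 (3180) and 0 without rats 1255 and 1274 (2350), an alternative chosen after seeing the data. Genes called by MMI numbered 3561, against 1046 with PH as a covariate, 1 with diet and PH, 1479 without rats 1246, 1248 and 1249, 0 in HFD rats alone (3592 at an unadjusted p under 0.05), 2 in SD rats alone and 1495 without rats 1255 and 1274. Leaving out each rat in turn gave 0 to 1 genes by diet (1 without SD rat 1250), 0 to 3805 by PH (0 without SD rat 1244, 1247 or 1249, 3805 without HFD rat 1252, the count moving by over 1.5 times whichever rat was left out) and 2045 to 4951 by MMI (2045 without SD rat 1244, and over 1.5 times lower than 3561 also without SD rat 1246 or 1247 or HFD rat 1252 or 1274).

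No reversed log2 fold change belonged to a called gene. By diet, Fbp1 was at 0.0090 with TMM factors and 0.065 with equal library totals, Slc34a1 at 0.031 with equal totals and Pck1 at -0.18 with PH and MMI as covariates, and without rats 1255 and 1274 Slc34a1 was at 0.49, Slc5a2 at 0.11 and Fbp1 at 0.30. By PH in SD rats alone, Lrp2 was at -0.019 and Cubn at -0.29. By MMI, Slc5a1 was at 0.015 with TMM factors, 0.21 with PH as a covariate, 0.21 with diet and PH, 0.28 in SD rats and 0.16 without rats 1255 and 1274, and Lrp2 at 0.088, 0.077, 0.27 and 0.093 under the last 4 of these. Fbp1 by MMI was at 0.047 with diet and PH and 0.083 in SD rats, Cubn at -0.053 without rats 1246, 1248 and 1249 and -0.37 in HFD rats, Slc6a18 at -0.055 and -0.15 under the same settings, and Slc6a19 at 0.23 with diet and PH, 0.15 in SD rats and 0.039 without rats 1255 and 1274. With each rat left out, values crossed 0 by diet for Slc34a1 (-0.23 to 0.22), Pck1 (-0.046 to 0.38) and Fbp1 (-0.079 to 0.13), by PH for Slc6a18 (-0.00075 to 0.16), and by MMI for Slc5a1 (-0.14 to 0.098) and Lrp2 (-0.12 to 0.025).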
